A study of Homo sapiens with 12 samples.

Results

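The genes described here encode zinc finger proteins with a ZNF symbol, which bind DNA, RNA or other proteins through small folds held together by a zinc ion. They were selected by biotype, symbol and raw count: protein-coding genes whose symbol is ZNF followed by digits alone and whose counts over the 12 libraries summed to 1500 or more. The rule took 163 of the 475 protein-coding ZNF genes and of the 57704 endogenous genes in the count table, so the lower limit of their level was set by the choice. Since the sum takes in both groups, a gene near the limit could enter through the group where it is higher. The cells were HEK293 (ATCC CRL-1573, a human embryonic kidney line), and the assay counted the 3′ ends of polyadenylated RNA. They stably express DARP-EGFP from a reporter holding an endogenous intronic sequence. One group of 6 libraries came from transfections with pooled siRNAs against SUPT4H1, and the other group of 6 from transfections with scrambled siRNA. Both siRNAs were used at 100 nM, and RNA was taken after 72 hours. All 12 transfections were done side by side from 1 culture of the reporter cells, so that both groups carry the reporter, and the p-values measure only how much transfections of a single culture vary. Cells without the reporter were not analysed here.

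Most ZNF proteins carry fingers of the C2H2 type, in which a pair of cysteines and a pair of histidines hold the zinc ion, and most of these belong to a family that grew by tandem duplication, above all on chromosome 19. Many begin with a KRAB box, a short domain that binds the corepressor TRIM28. TRIM28 in turn brings in the histone methyltransferase SETDB1, HP1 proteins and the NuRD complex, which silence chromatin, often at transposable elements. Other members of the family are activators, RNA-binding proteins, ribosome factors or enzymes. SUPT4H1 encodes the small subunit of DSIF, a factor that travels with RNA polymerase II during elongation.

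In GENCODE 29, 58 of the 163 genes lay on chromosome 19, 19 on chromosome 7 and 13 on chromosome 16. A KRAB box was found in the translation of the longest annotated coding sequence of 70 genes, a SCAN domain, which pairs such proteins with each other, in 12, and both in 7. The median number of C2H2 fingers was 9 and the highest 33, in ZNF462, and 4 proteins had no finger that fits the pattern used (ZNF503, ZNF703, ZNF330 and ZNF839). The finger repeats are a part of these genes that copies can share. The following 78 bases, 1 from each of 4 genes on which the results turn, hold the first finger that is followed by the conserved linker, read along the gene in GRCh38, with the linker codons in capitals.
ZNF569 (chr19:37414019-37414096, minus strand): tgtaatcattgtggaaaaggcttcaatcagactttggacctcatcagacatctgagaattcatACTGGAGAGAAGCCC
ZNF268 (chr12:133202854-133202931, plus strand): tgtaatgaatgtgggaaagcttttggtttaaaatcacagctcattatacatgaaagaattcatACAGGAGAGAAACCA
ZNF605 (chr12:132926711-132926788, minus strand): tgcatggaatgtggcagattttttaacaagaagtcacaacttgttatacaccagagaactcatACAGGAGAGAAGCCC
ZNF226 (chr19:44176355-44176432, plus strand): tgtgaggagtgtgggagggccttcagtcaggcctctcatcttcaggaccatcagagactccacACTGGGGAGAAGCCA

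Each of these units lies in the last exon of its gene, exon 6 of ZNF569 and ZNF268, exon 5 of ZNF605 and exon 7 of ZNF226. Compared with the unit of ZNF569, 53 of the 78 bases were the same in ZNF268, 51 in ZNF605 and 50 in ZNF226. Over whole proteins, 19 of the 163 shared more than 5% of their 20-residue words with the nearest other ZNF protein, led by ZNF587, which shared 71.9% with ZNF417. Counts of ZNF587, and of the pair ZNF773 and ZNF419, which shared 30.5% and 26.4% of their words, are uncertain because the handling of reads that fit both copies is not given. A gene on the opposite strand overlapped 98 of the 163 genes, and the strand setting of the counting is not given either.

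Endogenous counts summed to between 6591194 and 20269171 per library. SUPT4H1 itself was at 174.9 to 198.7 CPM (counts relative to library size, scaled between libraries by TMM) with scrambled siRNA and at 17.9 to 22.8 CPM with its own siRNAs, 8.84-fold lower. Of the markers of HEK293 cells, VIM and NEFL were above 200 CPM in every library, while UMOD, AQP2, SLC12A1, PTPRC and CDH5, markers of kidney tubule, leukocytes and endothelium, were at 0 throughout. The summed HEK293 markers were lower with SUPT4H1 siRNA (1336 to 1460 CPM against 1633 to 2173), where NEFL held most of the sum. Of these 6 markers NEFL (−0.62) and KRT18 (−0.45) fell, VIM (0.27) rose and 3 did not pass (edgeR adjusted p under 0.05 for calls). Among those 3, NEFM and PAX2 were at very low levels. NEFM was at 1.03 to 1.91 CPM with scrambled and 0.73 to 1.61 CPM with SUPT4H1 siRNA, and PAX2 at 1.06 to 2.16 and 0.40 to 1.32 CPM. The kidney tubule marker LRP2 was present and fell (18.9 to 23.1 CPM against 10.8 to 18.5 CPM, −0.50). Of the neuron markers, MAP2 (22.0 to 30.4 CPM against 15.2 to 22.6 CPM) fell by 0.42, and SYT1 (22.98 to 48.2 CPM against 18.5 to 36.0 CPM) did not pass. At low levels, the leukocyte marker CD68 (0.67 to 1.55 CPM against 1.04 to 2.72 CPM) rose by 0.76. The fibroblast markers COL3A1 (0.85, at most 3.64 CPM) and PDGFRA (0.78, at most 3.23 CPM) rose as well. COL1A1 (4.23 to 8.76 CPM against 2.93 to 6.59 CPM) did not pass. The part of these markers in the ZNF results was not tested. SUPT4H1 siRNA replicate 6 stood apart: it was the highest library of its group for 65 of the 163 genes and the lowest for 44, while the other 5 were highest for 14 to 25 and lowest for 20 to 27. Results are therefore given with and without it where it matters.

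With SUPT4H1 siRNA, 44 of the 163 genes rose relative to all mRNA, 21 fell and 98 did not pass the test (edgeR quasi-likelihood test over 13811 genes, Benjamini-Hochberg adjusted p under 0.05). In percent, 27% rose and 12.9% fell, against 20% and 20.2% of all genes tested, and 39.9% changed in either direction against 40.2%. Protein-coding genes with the same minimum count sum gave a second background, in which 24.1% rose and 22% fell. Their median count sum was 5613, against 3176 for the ZNF genes, so this background was not matched for level. The share of ZNF genes that rose was near this background, and the share that fell was below it, a difference that was not tested. The part of the differing counts in it was not tested either. The median log2 fold change of the ZNF genes was 0.05 (quartiles −0.13 and 0.34), beside −0.00 over all genes and 0.01 over those coding genes. No member changed strongly: the extremes were 1.17 and −0.79 on the log2 scale, and 2 genes, ZNF569 and ZNF268, rose by 2-fold or more. The scrambled level of ZNF268 lay below that of genes just under the count limit. The libraries of the groups did not overlap for 36 genes (22.1%, against 20.4% of all genes and 25.2% of those coding genes). With SUPT4H1 siRNA 24 of the 36 were higher and 12 lower. Over all genes 1414 were higher and 1407 lower, and over those coding genes 1154 and 1023. Without replicate 6, 43 of the 163 ZNF genes rose and 26 fell, and 60 of the 65 calls were shared. Leaving out each library in turn, 36 of the 44 rises and 20 of the 21 falls were called in all 12 fits.

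**Figure D1:**
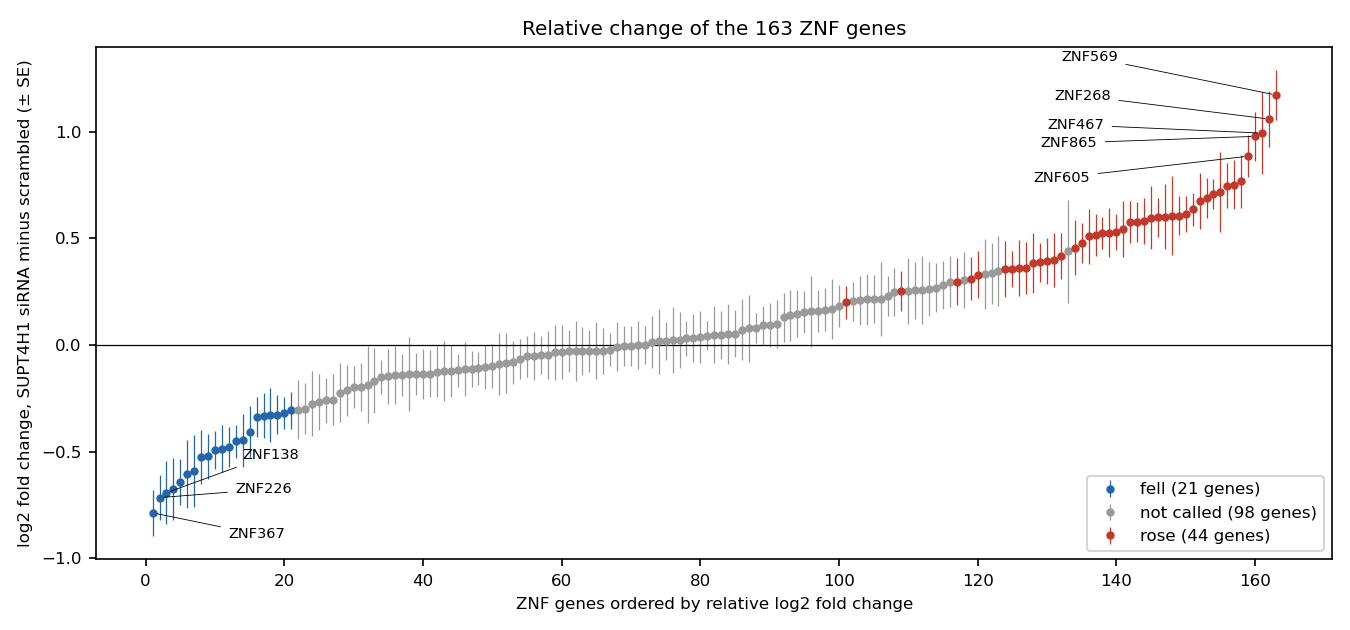
Each point is 1 of the 163 ZNF genes, ordered by its relative log2 fold change (y axis, SUPT4H1 siRNA minus scrambled, bars are standard errors), in red where it rose, blue where it fell and grey where it was not called. The right end reaches 1.17 (ZNF569) and the left end −0.79 (ZNF367), and 92 of the 163 genes lie above 0.

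ZNF569, a KRAB protein with 18 fingers, rose most. With scrambled siRNA its level was 11.3 CPM at the lowest, 13.6 at the median and 17.9 at the highest, and with SUPT4H1 siRNA 27.0, 32.6 and 35.8. Every SUPT4H1 library was above every scrambled one, and the means of 14.02 ± 2.38 and 32.0 ± 3.68 CPM (SD, n = 6 each) differed by 1.17 on the log2 scale (SE 0.12, edgeR adjusted p = 1.18e-07). In GRCh38, ZNF569 (ENSG00000196437) runs along the minus strand of chromosome 19 between 37411155 and 37469275, and its 5′ end overlaps that of ZNF570, which points away on the plus strand. ZNF570, another KRAB protein, also rose. Its libraries ran from 7.34 through a median of 8.32 to 9.67 CPM with scrambled siRNA and from 11.8 through 13.5 to 18.1 CPM with SUPT4H1 siRNA, again with no overlap, a difference of 0.77 in log2 (SE 0.12, edgeR adjusted p = 5.11e-05). The annotated overlap of the pair spans 1691 bases, and the 3′ ends, where the reads of this assay fall, lie outside it, at 37411155 and 37488652.

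The start sites in the RefSeq promoter table (GRCh38) are at 37467444 for ZNF569 and 37467772 for ZNF570, with 327 bases between them. The windows of both promoters share the following stretch, printed on the plus strand with each CG in capitals, because both genes rose and it lies between their start sites.
Shared ZNF569 and ZNF570 promoter (chr19:37467522-37467694): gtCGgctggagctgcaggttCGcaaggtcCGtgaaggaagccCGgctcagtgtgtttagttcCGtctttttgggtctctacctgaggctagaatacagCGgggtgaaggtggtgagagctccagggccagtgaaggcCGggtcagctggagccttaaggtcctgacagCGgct
It has 8 CG, a GC content of 59.5% and no TATAAA on either strand. RefSeq promoters, which run from 250 bases before to 50 after a start, were matched for 143 of the 163 genes. They held a median of 25 CG and 64% GC, against 14 CG and 58.3% over all 27305 promoters, and CG was found in 100% of them against 95.8% of all. TATAAA, sought on both strands, was in 4 of them (2.8%, against 12% of all). The 39 matched genes that rose had a median of 25 CG and the 19 that fell 29, and TATAAA was in 1 of each, so that TATAAA was rare in both.

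ZNF268, a KRAB protein with 24 fingers on chromosome 12 (133181409 to 133214831, plus strand), had the lowest mean level of all 163 genes in scrambled cells, 7.66 CPM. That was below the 10.6, 9.98 and 10.3 CPM of ZNF761, ZNF582 and ZNF692, which the count limit left out. The limit sums both groups, so ZNF268 (1595 counts) entered through its higher SUPT4H1 libraries. Its rise is not independent of that choice. ZNF467 (8.05 CPM), ZNF570 (8.42 CPM) and ZNF180 (8.67 CPM) were placed alike. ZNF268 went from 6.58, 7.13 and 10.3 CPM (lowest, median and highest library) to 13.7, 15.9 and 18.95 CPM, a log2 rise of 1.06 (SE 0.13, edgeR adjusted p = 2.82e-06) with no overlap. Further towards the centromere, ZNF605, a KRAB protein with 17 fingers, went from 10.9, 11.9 and 13.6 CPM to 21.0, 22.4 and 24.4 CPM. Its log2 fold change was 0.89 (SE 0.10, edgeR adjusted p = 5.51e-07), and its libraries within each group lay close together. Between them on the same arm, ZNF84 rose by 0.39 (edgeR adjusted p = 0.0059, groups overlapping), and ZNF140 had a value of 0.35 that did not pass the test (edgeR adjusted p = 0.10), although it passed without scrambled replicate 2 or 3 or SUPT4H1 replicate 1. This stretch of chromosome 12 was singled out after its values were seen.

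ZNF865, which has 20 fingers and no KRAB box, went from 19.2, 21.2 and 25.97 CPM to 34.2, 41.2 and 54.2 CPM (lowest, median, highest), which made 0.98 on the log2 scale (SE 0.11, edgeR adjusted p = 1.07e-06). All 6 SUPT4H1 libraries lay above all scrambled ones. ZNF467, with a value of 0.99, was called too (edgeR adjusted p = 4.40e-04), but its libraries overlapped, with 5.70 to 9.83 CPM against 8.74 to 19.98 CPM. The next rises without overlap were 0.75 for ZNF655, 0.75 for ZNF32, 0.71 for ZNF503, 0.69 for ZNF473, 0.67 for ZNF419, 0.64 for ZNF219 and 0.62 for ZNF428. ZNF473 encodes the U7 snRNP partner that acts in the 3′ end processing of histone mRNA, and went from 20.5, 23.8 and 24.97 CPM to 31.2, 37.8 and 42.6 CPM. For ZNF655, scrambled replicate 6 was high at 19.3 CPM, against 13.4 to 15.3 CPM in the other 5, and all SUPT4H1 libraries were still higher, at 21.5 to 32.1 CPM.

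**Figure D2:**
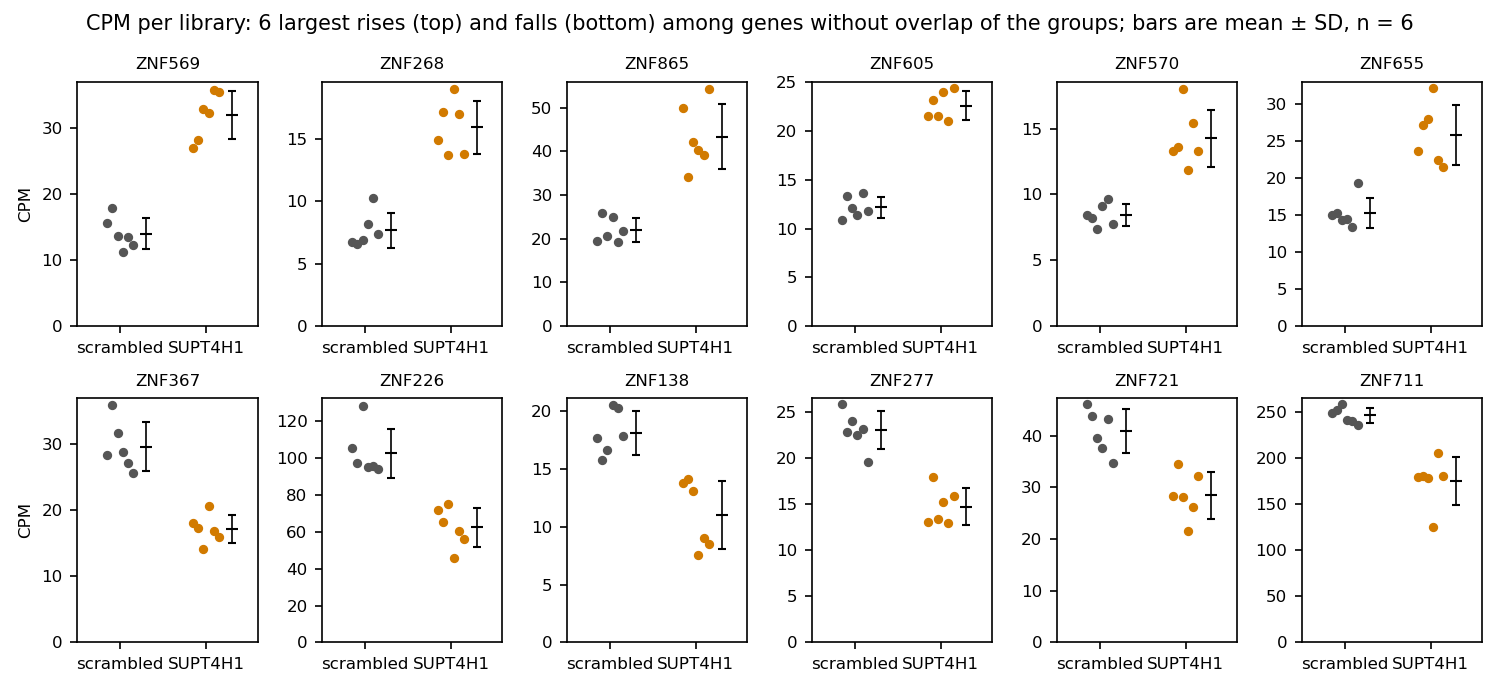
CPM per library (points, y axis from 0) of the 6 largest rises (top row) and the 6 largest falls (bottom row) among called genes whose groups did not overlap, scrambled siRNA in grey and SUPT4H1 siRNA in orange, with the mean and SD (bars, n = 6) beside them. That choice leaves out the rise of ZNF467 and the falls of ZNF83, ZNF821, ZNF771 and ZNF592. It also fixes the gap between the groups in each panel. In ZNF569 the highest scrambled library is at 17.9 CPM and the lowest SUPT4H1 library at 27.0 CPM.

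ZNF367, a protein with 2 fingers and no KRAB box, fell most. Its libraries ran from 25.5 through a median of 28.4 to 35.8 CPM with scrambled siRNA and from 14.1 through 17.1 to 20.6 CPM with SUPT4H1 siRNA, so that every SUPT4H1 library was below every scrambled one. The log2 fold change was −0.79 (SE 0.11, edgeR adjusted p = 8.56e-06). ZNF226, a KRAB protein with 17 fingers on chromosome 19 (44165073 to 44178381, plus strand), went from 94.3, 96.4 and 128.6 CPM to 45.8, 62.9 and 75.1 CPM. It fell by 0.72 on the log2 scale (SE 0.11, edgeR adjusted p = 2.44e-05), with 1 high scrambled library, replicate 3. ZNF138, a short KRAB protein with 2 fingers, went from 15.8, 17.7 and 20.5 CPM to 7.53, 11.1 and 14.1 CPM, a change of −0.69 (SE 0.15, edgeR adjusted p = 7.87e-04). Its SUPT4H1 libraries fell into a lower set of 3, under 10 CPM, and a higher set of 3, over 13 CPM, and both were below the scrambled libraries.

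Other falls without overlap were −0.64 for ZNF277, −0.52 for ZNF721, −0.49 for ZNF711, −0.49 for ZNF449, −0.48 for ZNF593, −0.45 for ZNF131, −0.33 for ZNF74, −0.32 for ZNF430 and −0.31 for ZNF576. ZNF711, which binds the histone demethylase PHF8 and is mutated in X-linked intellectual disability, was the most abundant of them. It was at 236.2, 245.8 and 259.1 CPM with scrambled siRNA and at 125.8, 180.3 and 205.5 CPM with SUPT4H1 siRNA. The low value came from replicate 4 alone, since the other 5 libraries were at 178.3 CPM or more, still below all scrambled libraries. ZNF83, at −0.67, was called (edgeR adjusted p = 9.02e-04), with groups that overlapped between 9.64 and 10.7 CPM. ZNF821 (−0.61), ZNF771 (−0.59) and ZNF592 (−0.53) were called too, also with overlapping groups.

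Against a minimum change of 1.5-fold, edgeR's glmTreat called 4 of the 163 genes higher and 0 lower, and without adjustment 10 and 2 had a p under 0.05. Most of the 65 changes were thus not shown to exceed 1.5-fold.

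Levels are counts of 3′ ends and are not divided by transcript length, and each rank below refers to this scale. In scrambled cells the mean level ran from 7.66 CPM (ZNF268) through a median of 20.8 to 299 CPM (ZNF428), with 77 genes under 20 CPM and 11 over 100 CPM. The 10 highest held 30.9% of the summed level. ZNF428, which has 1 finger, was highest, at 272.1, 286.1 and 341.2 CPM with scrambled siRNA and 388.5, 469.8 and 508.3 CPM with SUPT4H1 siRNA (edgeR adjusted p = 7.32e-06). ZNF703, a finger-poor corepressor amplified in luminal breast cancer, went from 210.9, 241.6 and 281.0 CPM to 282.1, 358.2 and 372.9 CPM, a log2 rise of 0.53 (SE 0.08, edgeR adjusted p = 4.28e-05). The groups nearly met at replicate 6, the lowest SUPT4H1 library, and the other 5 were at 349 to 373 CPM. Its paralog ZNF503 rose as well, from 124.7, 130.7 and 143.5 CPM to 198.0, 216.6 and 235.5 CPM, a log2 rise of 0.71 (SE 0.07, edgeR adjusted p = 1.21e-07). Of the other most abundant genes, ZNF451, a SUMO ligase, had a value of −0.11 and ZNF207, a partner of the spindle checkpoint protein BUB3, a value of 0.04, neither past the test and with overlapping groups.

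Summed over the 163 genes, the level was 5827 ± 65.9 CPM with scrambled siRNA and 6380 ± 159 CPM with SUPT4H1 siRNA (SD, n = 6 each). The scrambled libraries lay between 5703 and 5885 CPM and the SUPT4H1 libraries between 6271 and 6700 CPM, and without replicate 6 the highest was 6341.5 CPM. No test was made on this sum, because the genes were chosen on their counts. Of the difference of 553 CPM, 159 came from ZNF428, 107 from ZNF703 and 83.5 from ZNF503. The other 160 genes went from 5155 to 5359 CPM, and their groups nearly met, with a scrambled maximum of 5206 CPM and a SUPT4H1 minimum of 5218 CPM. Together, 349 CPM of the added level stood in those 3 abundant genes, of which ZNF428 has 1 C2H2 finger and the others none by the pattern used.

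Among 25 genes listed for a known role, the RNA polymerase II and promoter factors differed from each other. ZNF143, an activator of small nuclear RNA and mRNA promoters, had a value of −0.09 (edgeR adjusted p = 0.65), with 14.3 to 24.7 CPM against 13.7 to 22.5 CPM. Its close relative ZNF76 rose by 0.72 (SE 0.19, edgeR adjusted p = 0.0068), although scrambled replicate 2, at 35.1 CPM, lay inside the SUPT4H1 range of 28.4 to 54.0 CPM. ZNF326, a subunit of the DBIRD complex that links elongation to splicing, had a value of 0.36 (edgeR adjusted p = 0.035). That call was lost without scrambled replicate 1, 3, 5 or 6, without SUPT4H1 replicate 4, and without SUPT4H1 replicate 6 (0.24, edgeR adjusted p = 0.081). ZNF281, which binds GC-rich promoters, rose by 0.58 (SE 0.09, edgeR adjusted p = 5.28e-05), from 27.4 to 31.3 CPM up to 33.8 to 51.8 CPM. ZNF148, its paralog, did not pass, at 0.09, and neither did ZNF24 (0.08), ZNF217 (0.26) and ZNF263 (−0.03).

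The ZNF proteins that act on ribosomes had values below 0. ZNF593, a factor in the making of the large ribosomal subunit, went from 139.8, 146.5 and 193.9 CPM to 91.4, 114.2 and 125.7 CPM, a fall of 0.48 (SE 0.09, edgeR adjusted p = 3.65e-04). ZNF598, the ubiquitin ligase that marks collided ribosomes, had a log2 value of −0.41 (SE 0.12, edgeR adjusted p = 0.0099), with overlapping libraries at 40.01 to 64.2 CPM and 27.9 to 48.7 CPM. ZNF622, which acts late in 60S maturation, had a value of −0.10 that did not pass. The list has 3 such genes, and nothing about ribosome factors as a class was tested.

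Among chromatin regulators, the ZMYND8 partners ZNF592 and ZNF687 fell by 0.53 and 0.33 (edgeR adjusted p = 0.0022 and 0.0067), each with overlapping groups. ZNF131, a BTB protein, fell by 0.45 (SE 0.08, edgeR adjusted p = 1.09e-04), from 49.3 to 62.1 CPM down to 38.5 to 45.2 CPM with no overlap. ZNF335, ZNF462 and ZNF638, a protein that works with the HUSH silencing complex, did not pass, at −0.26, 0.16 and 0.44. For ZNF638 the SUPT4H1 range of 42.3 to 105.9 CPM rested on replicate 6, since the other 5 libraries reached 54.0 CPM. Of the KRAB repressors with known targets, ZNF445, which protects genomic imprints, rose by 0.42 (SE 0.11, edgeR adjusted p = 0.0040) with no overlap. ZNF91, which silences SVA elements, had a value of −0.11 and ZNF274, which brings SETDB1 to the ends of ZNF genes, −0.27 (edgeR adjusted p = 0.51 and 0.11). Leaving out scrambled replicate 2 brought ZNF274 past the threshold (−0.34, edgeR adjusted p = 0.043).

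Genes with and without a KRAB box were called at similar rates upward. Over all genes tested 20% rose and 20.2% fell, and over the coding genes with the same minimum count sum 24.1% and 22%. Of the 70 with a KRAB box, 20 rose (28.6%) and 5 fell (7.14%), with a median of 0.08. Of the 93 without one, 24 rose (25.8%) and 16 fell (17.2%), with a median of 0.03. The fall counts are the larger contrast, but without replicate 6 they were 8 and 18. The 37 KRAB genes on chromosome 19 had 15 rises (40.5%) and 2 falls (5 falls without replicate 6), and the 33 elsewhere 5 rises (15.2%) and 3 falls. The 21 chromosome 19 genes without a KRAB box had 5 rises and 2 falls. Of the 12 genes with a SCAN domain, ZNF445 rose, ZNF449 fell and 10 were not called. By number of fingers, 9 of 31 genes with 0 to 3 fingers rose and 7 fell, 7 and 5 of 44 with 4 to 8, 15 and 5 of 54 with 9 to 13, and 13 and 4 of 34 with 14 or more. The medians of these classes were 0.02, 0.01, 0.09 and 0.16, and without replicate 6 the last class had 10 rises and a median of 0.12. Across the 163 genes, Spearman's rho with the log2 fold change was 0.10 for fingers, 0.13 for protein length and −0.17 for level, given as a description, since the genes share the same 12 libraries. None of these classes was tested against another or against the shares over all or coding genes.

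**Figure D3:**
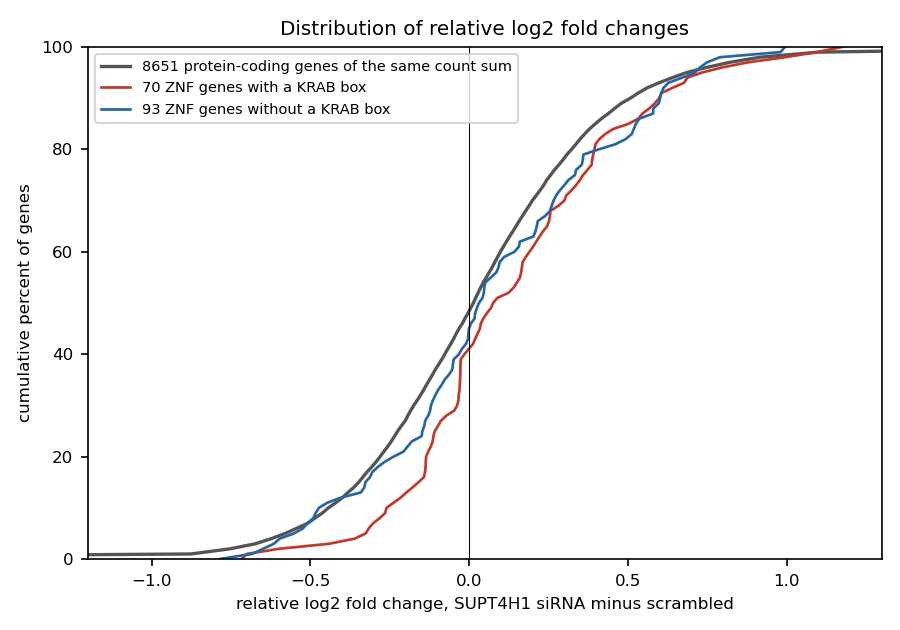
Cumulative percent of genes (y axis) by relative log2 fold change (x axis, SUPT4H1 siRNA minus scrambled). Curves are for the 70 genes with a KRAB box, the 93 without one and the 8651 protein-coding genes with the same minimum count sum. The curves lie close together around their medians of 0.08, 0.03 and 0.01, and the KRAB curve is the lowest of the 3 over most of the negative values, where 5 KRAB genes fell.

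Members that lie within 1 Mb of each other formed 8 runs of 5 or more, with 64 of the 163 genes. Over all genes tested 20% rose and 20.2% fell. With 5 to 20 genes per run, the counts below are descriptions, and no run was tested against these shares. In the run at chromosome 19 from 36214602 to 37488652, which ends with ZNF569 and ZNF570, 4 of 8 genes rose, the others being ZNF260 (0.58) and ZNF420 (0.39), and the median was 0.36. The other 4 genes of the run (ZNF146, ZNF382, ZNF850 and ZNF829) had values from −0.17 to 0.33 that did not pass, and ZNF382 fell without replicate 6 (−0.33, edgeR adjusted p = 0.039). In the run from 7069444 to 9675086, ZNF557, ZNF358, ZNF426 and ZNF561 rose by 0.36 to 0.58, the other 4 did not pass, and all 8 values were above 0 (median 0.27). The call of ZNF561 was lost without SUPT4H1 replicate 4 or 5. The largest run, 20 genes from 55576770 to 58481230 near the end of chromosome 19, had 6 rises (ZNF865, ZNF419, ZNF544, ZNF304, ZNF587 and ZNF773) and 14 genes that did not pass, with a median of 0.01. Without replicate 6 it had 7 rises, with ZNF579 (0.33, edgeR adjusted p = 0.019), and a fall of ZNF784 (−0.28, edgeR adjusted p = 0.033).

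Neighbours could also move apart. In the run from 43596392 to 44500524, ZNF428 (0.62) and ZNF180 (0.54) rose while ZNF226 (−0.72) and ZNF576 (−0.31) fell. ZNF576 and ZNF428 are neighbours among the 163 genes, and both had groups that did not overlap. On chromosome 7 from 64519884 to 65401135, ZNF138 (−0.69) and ZNF273 (−0.45) fell and 3 genes did not pass. In the run at 149126416 to 150398631 on the same chromosome, ZNF467 rose and 6 genes did not pass, of which ZNF777 rose without replicate 6 (0.26, edgeR adjusted p = 0.026). The chromosome 16 run, at 30378106 to 30787202, held 1 fall, ZNF771 (−0.59), and 5 values between −0.11 and 0.07. The last run, from 20923222 to 21329425 on chromosome 19, had a fall of ZNF430 and a rise of ZNF708 (0.39), whose call was lost without scrambled replicate 4, 5 or 6 or SUPT4H1 replicate 2, 5 or 6. Without SUPT4H1 replicate 6 ZNF708 did not pass (edgeR adjusted p = 0.059) and ZNF431 fell as well (−0.32, edgeR adjusted p = 0.0093).

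**Figure D4:**
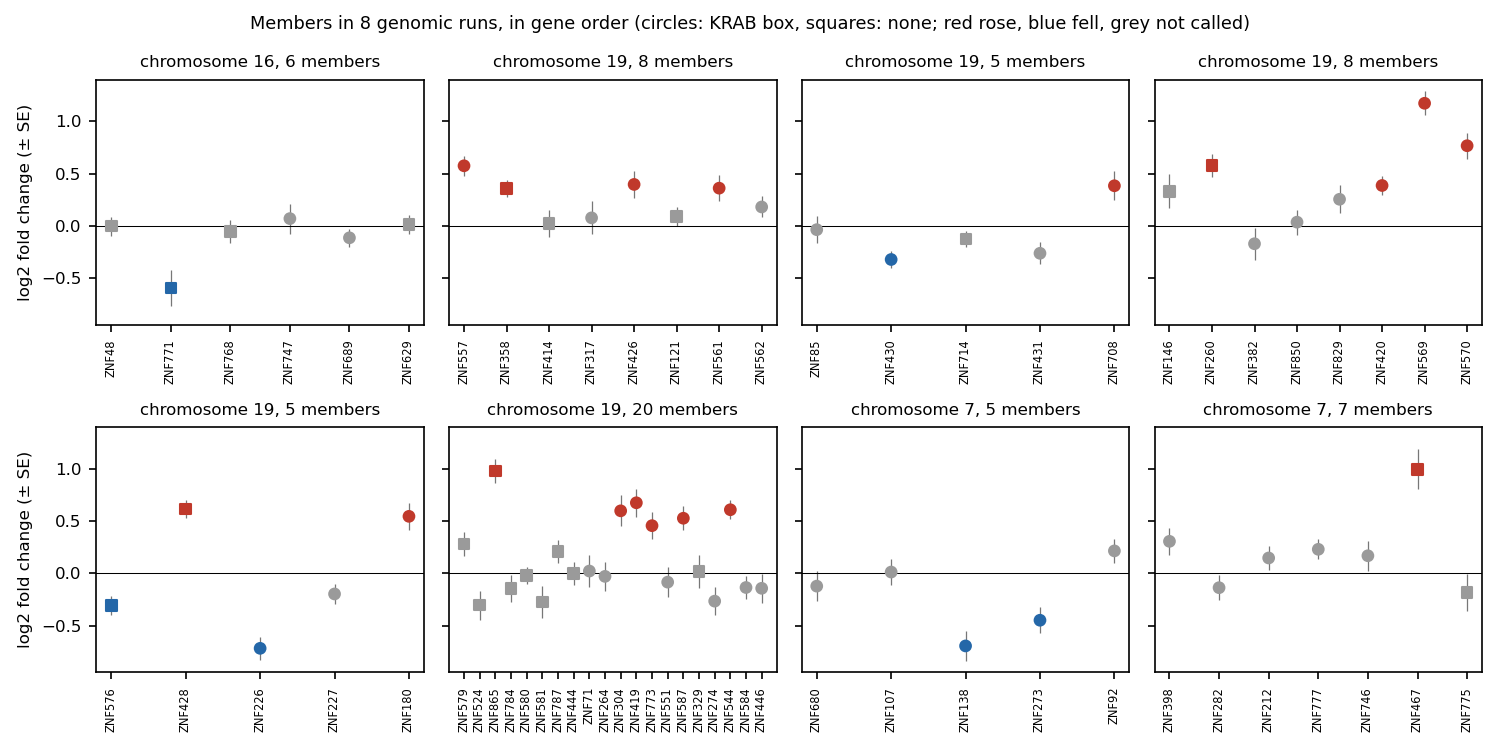
Relative log2 fold change (y axis, bars are standard errors) of the 64 genes in the 8 runs, each panel a run and the genes in their order on the chromosome. Circles have a KRAB box and squares do not, red rose, blue fell and grey was not called, and in the chromosome 19 panel with ZNF569 at 1.17 its neighbour ZNF570 is at 0.77.

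The proteins that KRAB boxes work through were listed as 39 genes, of which 10 rose and 6 fell, with a median of 0.10. In percent, 25.6% rose and 15.4% fell, against 24.1% and 22% of coding genes with the ZNF genes' minimum count sum. The share that rose was near this background and the share that fell was below it, a difference that was not tested. The median count sum was 9575 for the partners and 5613 for those coding genes, and SETDB2 (1177 counts) lay under the minimum. TRIM28, the corepressor itself, had a value of −0.01 (SE 0.10, edgeR adjusted p = 0.97), at 63.8 to 90.8 CPM against 58.5 to 86.8 CPM. SETDB1 had a value of 0.13 that did not pass, and its relative SETDB2, at the low level of 8.91 CPM in scrambled cells, fell by 0.54 (edgeR adjusted p = 0.0082). Of the HP1 genes, CBX3 fell by 0.55 (SE 0.08, edgeR adjusted p = 2.32e-05), from 1178 to 1592 CPM down to 878 to 1075 CPM without overlap. CBX1 and CBX5 did not pass, at −0.16 and 0.31, and the value of CBX5 was 0.07 without replicate 6. Within NuRD, CHD3 (0.63), MTA2 (0.63), GATAD2A (0.37), MBD3 (0.32), CHD4 (0.26) and HDAC1 (0.19) rose, while MTA1 (−0.27) and RBBP4 (−0.23) fell. The other NuRD genes listed, HDAC2 (0.06), MTA3 (0.03), GATAD2B (0.07), RBBP7 (0.14) and MBD2 (−0.17), did not pass, and MBD2 fell without replicate 6 (edgeR adjusted p = 0.024). In the HUSH complex and its partner, FAM208A (0.50), MPHOSPH8 (0.34) and MORC2 (0.44) rose and PPHLN1 (0.16) did not pass. The histone methyltransferase gene SUV39H2 (−0.39) and the DNA methyltransferase gene DNMT3B (−0.42) fell, and DNMT1 (0.19) did not pass. Nor did the methyltransferase genes SUV39H1 (−0.31), DNMT3A (0.10), EHMT1 (−0.01) and EHMT2 (0.01), although SUV39H1 passed without scrambled replicate 2. TRIM33 rose by 0.31 without overlap (edgeR adjusted p = 0.0011). The call of HDAC1 was lost without scrambled replicate 4, 5 or 6 or SUPT4H1 replicate 5, and that of RBBP4 without scrambled replicate 5 or SUPT4H1 replicate 3 or 4. DNMT1 passed without scrambled replicate 2 or 3, and PPHLN1 without SUPT4H1 replicate 2.

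Related C2H2 families with the same minimum count sum were few. Of 5 ZKSCAN genes 4 rose, led by ZKSCAN1, a KRAB and SCAN protein, which went from 171 to 197 CPM up to 336 to 402 CPM (0.98 in log2, SE 0.07, edgeR adjusted p = 2.10e-09). The 4 ZSCAN genes had edgeR adjusted p-values of 0.21 to 0.92. Of 17 ZBTB genes 4 rose (3 without replicate 6) and ZBTB5 fell, a call lost in 7 of the 12 fits that leave out a library, replicate 6 among them, and of 7 ZFP genes 3 rose and 2 fell. Of 8 KLF genes 4 rose, among them KLF9 (1.08) and KLF10 (0.90), which respond early to glucocorticoid and TGF-beta signals, and the other 4 did not pass. Single libraries decided several of these calls: in the 12 fits that leave out a library, those of ZBTB20, KLF11, ZKSCAN5 and ZFP64 were lost in 7, 6, 4 and 4. With 4 to 17 genes each, and 20% and 20.2% of all genes rising and falling, the counts are descriptions of these families.

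Just inside the limit of 1500 counts stood ZNF513 (1520 counts), ZNF71 (1524) and ZNF329 (1526), with log2 fold changes of 0.05, 0.02 and 0.02. Just outside stood ZNF761 (1472), ZNF582 (1458) and ZNF692 (1450), with values of −0.32, −0.12 and −0.17. Below the limit were 312 ZNF genes, of which 227 were tested, and 35 of them (15.4%) rose and 21 (9.25%) fell, with a median of 0.08. Both shares were below those of all genes tested, 20% and 20.2%. The median count sum of the 312 was 446, against 2802 over all genes tested. Quartiles of the log2 fold change were −0.22 and 0.37, against −0.27 and 0.27. The part of the lower counts in the smaller shares was not tested. The largest rises there were 1.28 for ZNF35, from 0.68 to 1.86 CPM up to 2.93 to 3.80 CPM, and 1.15 for ZNF772, from 4.75 to 7.61 CPM up to 9.08 to 16.3 CPM, both without overlap.

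Relative values do not show whether the amount of an mRNA changed, so each library was also scaled by 23 ERCC standards (subgroup B). These were added in nominally equal amount to every lysate. On this scale the median over all genes tested was −0.82, and the median over the 163 ZNF genes was −0.75. Of the 163, 89 fell (54.6%, against 59% of all genes) and 0 rose (against 0.311% of all genes; edgeR, 0 also at an unadjusted p under 0.05). Only 5 values were above 0, those of ZNF569 (0.42), ZNF268 (0.27), ZNF467 (0.21), ZNF865 (0.11) and ZNF605 (0.08), none past the test (edgeR adjusted p = 0.24 to 0.84). Of the 44 genes that rose relative to all mRNA, these 5 were above 0 on this scale and the others below it, among them ZNF428 at −0.20 (edgeR adjusted p = 0.56). Whether the amount of any of the 44 changed was not resolved. Falls were larger on this scale, −1.59 for ZNF367, −1.54 for ZNF226 and −1.60 for ZNF138 (edgeR adjusted p = 5.15e-05, 5.82e-05 and 6.07e-05). Fewer cells in a lysate and less RNA per cell cannot be told apart here. Scrambled samples received mix 1 of the standards and SUPT4H1 samples mix 2. A difference between the mixes or in their dosing therefore coincides with the groups and cannot be told apart either. The spread between libraries was wide on this scale, taken per library as the median log2 difference of the ZNF genes from the scrambled mean. This median ran from −0.39 to 0.59 with scrambled siRNA and from −1.47 to 0.21 with SUPT4H1 siRNA, so that the groups overlapped. The count of 89 was 52 without scrambled replicate 4, 55, 59 and 57 without SUPT4H1 replicate 1, 3 and 4, 65 without replicate 6 and 141 without replicate 5. It was 15 with the standards of subgroup C in place of B.

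**Figure D5:**
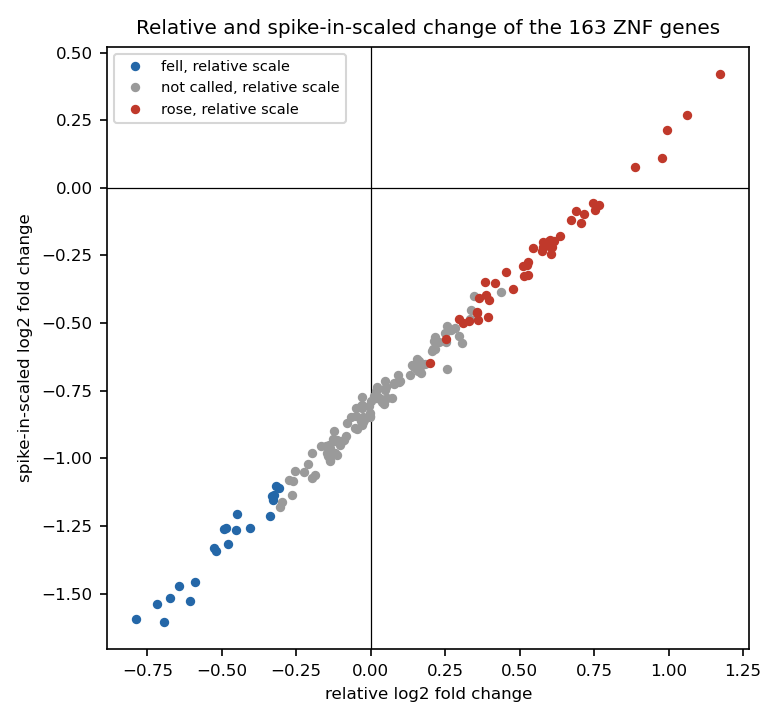
Relative log2 fold change (x axis) against spike-in-scaled log2 fold change (y axis) of the 163 ZNF genes, coloured by the relative call. Both axes use the same counts, and the medians are 0.05 on the x axis and −0.75 on the y axis. Of the points, 5 of 163 lie above 0 on the y axis.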

How the data were processed

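The authors' deposited table holds raw counts per gene from 3′ end sequencing (QuantSeq 3′ FWD), with ERCC RNA standards, mix 1 in scrambled and mix 2 in SUPT4H1 samples, per the labels. The submitters' processing notes name FastQC 0.11.5, STAR, MultiQC, R 3.4.3 and GRCh38.p10. The counting tool, annotation release and strand setting were not given in the sources used here. ERCC and reporter rows were kept out of library sizes. Genes were filtered with filterByExpr, scaled by TMM and tested with edgeR 4.0.16 (robust quasi-likelihood, Benjamini-Hochberg adjustment, R 4.3.3). A second scale used 23 ERCC standards of subgroup B, whose assignment comes from general knowledge of the product and not from the files. The standards with 20 or more counts in every library numbered 5, 7, 7 and 7 (subgroups A to D). Their median log2 ratios were −2.03, −0.01, 0.59 and 0.99, at nominal values of −2, 0, 0.58 and 1. All were taken relative to the subgroup B total, so the B value near 0 does not check that scale.

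Gene positions and coding sequences came from GENCODE 29 and promoters from the RefSeq table of GRCh38. A C2H2 finger was a pair of cysteines 2 to 4 residues apart, 12 residues, and a pair of histidines 3 to 5 apart. A KRAB or SCAN domain needed 12 or more identical residues in the best ungapped match to a consensus.

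The members and lists were chosen with earlier results of these data known. Named genes were the 12 largest rises and falls without overlap, the 5 of highest level, those next to the count limit, a list by role, KRAB partners and neighbours in runs. ZNF467, ZNF83, ZNF821, the genes of chromosome 12 and those of other families were named after their values were seen. Alternatives used DESeq2 1.42.0, limma 3.58.1, other scalings and filters, RNA integrity as a covariate, and fits without each library. On simulated counts for the relative comparison (13592 genes), 65.7% of 67 changes of 1.5-fold, 76.1% of 67 of 2-fold and 92.4% of 66 of 4-fold were recovered, with 11 false calls. The changed genes were drawn from all tested levels and were a far smaller share than the 40.2% called in the data. These rates therefore do not give the recovery among the ZNF genes. No pair of libraries within a group agreed within counting noise (chi-square per degree of freedom 4.45 to 34.7 over 30 pairs).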

Additional observations from a re-analysis of the deposited data

Results flagged for a closer look

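Among 100 sets of 6 libraries examined, 9 had a library far from the other 5 of its group (by Dixon's ratio at the 95% level), where chance gives about 5. Of the genes that rose, ZNF655 was at 19.3 CPM in scrambled replicate 6 (others 13.4 to 15.3), ZNF32 at 25.8 CPM in SUPT4H1 replicate 2 (others 19.1 to 21.1), ZNF703 at 282.1 CPM in SUPT4H1 replicate 6 (others 349 to 373) and ZNF76 at 35.1 CPM in scrambled replicate 2 (others 15.4 to 22.0). Of those that fell, ZNF226 was at 128.6 CPM in scrambled replicate 3 (others 94.3 to 106) and ZNF711 at 125.8 CPM in SUPT4H1 replicate 4 (others 178 to 205). ZNF638, which did not pass the test, had 2 such libraries, scrambled replicate 2 at 61.3 CPM and SUPT4H1 replicate 6 at 105.9 CPM. The summed level of the 163 genes was 6700 CPM in SUPT4H1 replicate 6, against 6271 to 6342 CPM in the other 5. The calls of ZNF655, ZNF32, ZNF703, ZNF76, ZNF226 and ZNF711 held in each of the 12 fits that leave out a library.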

How the results depend on the processing

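With DESeq2, 47 of the 163 genes rose and 20 fell, with limma-voom 46 and 21, and with RNA integrity as a covariate 35 and 20. A minimum change of 1.5-fold left 4 rises and 0 falls, and 295 and 253 over all genes. Narrower sets held fewer genes: 25 rose and 11 fell of 86 with a count sum of 3000 or more, and 17 and 7 of 65 with no gene on the opposite strand. Leaving out each library gave 38 to 45 rises, 20 to 26 falls and medians of 0.0338 to 0.0847. Over all genes it gave 2526 to 2907 rises and 2482 to 3000 falls. On the spike-in scale it gave 52 to 141 falls and 0 rises, and the median ran from −1.04 to −0.63. With subgroup C in place of B, 15 fell, and with subgroup D 78; the cause was not tested. With the replicate number as a block, 37 rose and 20 fell, and 103 fell on the spike-in scale. Same-numbered libraries deviated with correlations of −0.32 to 0.07, and none of the 6 numbers was matched best by its own, so the numbers were not taken to pair the samples. No call of a named gene changed direction, but values near 0 that did not pass changed sign in fits that leave out a library: ZNF263 (−0.07 to 0.02), ZNF513 (−0.01 to 0.15), ZNF71 (−0.08 to 0.10), ZNF329 (−0.04 to 0.11) and TRIM28 (−0.07 to 0.07). The call of ZNF326 was also lost with limma-voom (adjusted p = 0.055), with the covariate (0.092) and with the replicate block (0.077).

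Depth and 6 libraries per group limit how small a change can be called. On simulated counts, 65.7% of 1.5-fold changes were recovered. The simulation held fewer changes than the data and genes of all tested levels, so this rate does not carry over to the ZNF genes. Reads shared between near copies, and the strand of overlapping genes, could not be resolved.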
